A study of Mus musculus with 9 samples.

Results

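The genes described are 8 transcription factors that direct myeloid and lymphoid fate, namely Gfi1, Gfi1b, Ikzf1 (Ikaros), Cebpa, Cebpb, Cebpd, Cebpe and Irf8, measured in primary megakaryocytes of the mouse, the large platelet-forming cells of the marrow. They were chosen by name, and every probe set that the platform annotation pairs with 1 of these names alone was taken. This gave 10 probe sets for 7 genes, out of 20380 probe sets paired with 1 gene and 12393 genes in all, while no probe set was paired with Cebpe. Marrow or fetal liver cells had been grown with thrombopoietin, the cytokine of this lineage, and sorted for high CD41, a platelet integrin chain, and by forward scatter, which follows cell size. The arrays form 4 stages: MKP, MK3 and MK4 with 2 arrays each, and MK6 with 3. Samples were collected on culture days that match the numbers 3, 4 and 6, and no day is given for MKP. The labels name no genotype, strain or treatment that differs between stages, and it is not stated that a stage's arrays are independent cultures, so p-values here reflect the spread between samples that may be technical repeats. For MK6, replicate 1 is the array whose title carries no replicate word, and replicates 2 and 3 are those titled replicate1 and replicate2.

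C/EBP proteins are basic leucine zipper factors that dimerise. In myelopoiesis C/EBP alpha opens the granulocyte and monocyte programme, C/EBP epsilon acts late in granulocytes, and C/EBP beta and delta respond to cytokines and emergency demand. Gfi1 and Gfi1b are closely related zinc finger repressors that recruit the Lsd1 and CoRest corepressor: Gfi1 acts in stem cells, lymphocytes and neutrophils, while Gfi1b is needed for the erythroid and megakaryocytic lineages. Ikaros is a zinc finger factor of lymphoid development that works with chromatin remodelling complexes and also represses megakaryocytic genes in mouse progenitors, and Irf8 steers myeloid precursors towards monocytes and dendritic cells and away from granulocytes.

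Between MK6 and MKP, Ikzf1 and Gfi1 fell, Cebpd fell on 1 of its 2 probe sets, and Gfi1b, Cebpa, both probe sets of Cebpb and both of Irf8 did not pass the test. Gfi1 and Ikzf1 moved in the same direction, and Gfi1b is the paralogue that did not pass, so the upstream sequence of these 3 genes is shown. Windows of 250 bases ending at an annotated RefSeq transcript start were taken from RefSeq (GRCm38.p6), which has such an entry for 6 of the 8 genes. They lie on the minus strand at chr5:107725806-107726055 and chr5:107724344-107724593 for the 2 starts of Gfi1, on the minus strand at chr2:28621983-28622232 for Gfi1b, and on the plus strand at chr11:11685675-11685924 and chr11:11689927-11690176 for 2 starts of Ikzf1. Each is printed 5′ to 3′, with capitals marking the core of the motif that Gfi proteins bind, AAATC on either strand (GATTT).
Gfi1, upstream start: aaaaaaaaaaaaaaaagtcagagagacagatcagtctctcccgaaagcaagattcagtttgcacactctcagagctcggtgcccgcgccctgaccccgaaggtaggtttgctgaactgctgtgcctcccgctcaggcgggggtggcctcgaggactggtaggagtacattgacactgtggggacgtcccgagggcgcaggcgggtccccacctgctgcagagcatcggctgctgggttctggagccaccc
Gfi1, downstream start: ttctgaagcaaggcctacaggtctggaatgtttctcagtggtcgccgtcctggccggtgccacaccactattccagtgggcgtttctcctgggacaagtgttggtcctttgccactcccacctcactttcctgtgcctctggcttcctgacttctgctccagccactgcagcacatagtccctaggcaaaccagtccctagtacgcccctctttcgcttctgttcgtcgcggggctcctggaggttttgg
Gfi1b: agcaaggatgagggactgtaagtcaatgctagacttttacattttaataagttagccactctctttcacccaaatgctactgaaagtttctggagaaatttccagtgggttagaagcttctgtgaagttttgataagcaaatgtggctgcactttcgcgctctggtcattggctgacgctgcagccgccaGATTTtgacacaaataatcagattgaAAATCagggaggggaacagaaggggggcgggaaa
Ikzf1, upstream start: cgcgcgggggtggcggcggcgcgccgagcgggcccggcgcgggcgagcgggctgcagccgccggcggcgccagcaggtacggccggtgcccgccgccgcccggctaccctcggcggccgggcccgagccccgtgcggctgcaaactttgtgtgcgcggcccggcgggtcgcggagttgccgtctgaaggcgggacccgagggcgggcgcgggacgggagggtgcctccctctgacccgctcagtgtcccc
Ikzf1, downstream start: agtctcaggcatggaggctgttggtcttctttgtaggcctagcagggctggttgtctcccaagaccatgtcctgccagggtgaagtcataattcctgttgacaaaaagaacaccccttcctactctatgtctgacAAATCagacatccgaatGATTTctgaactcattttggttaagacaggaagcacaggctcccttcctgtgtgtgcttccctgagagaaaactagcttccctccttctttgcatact
The Gfi1b window held 2 matches, at 60 and 34 bases before the start, and the downstream Ikzf1 window held 2, at 115 and 98 bases. The 2 Gfi1 windows and the upstream Ikzf1 window held none. Among the windows of other members, not printed here, those of Irf8 held 2 and 1 matches, while those of Cebpa and Cebpb held none. Of the 32851 windows of that length searched in the RefSeq table, from which 1 chromosome was left out, 32.7% held at least 1 match. The shares of all windows that follow refer to these. The exact letters AGATAA, a form of the GATA motif, were searched on both strands. They were in none of the 5 printed windows, against 9.99% of all windows. Other forms of that motif, such as the TGATAA in the Gfi1b window, were not searched. The C/EBP motif TTGCNNAA was found once, in the upstream Gfi1 window at 143 bases before the start, against 9.56% of all windows. The 4 motifs searched, with TGGGAA for Ikaros (21.6% of all windows, none of these 5), do not overlap at any of the matches given. A match describes letters and no binding was measured.

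Signals are the deposited MAS5 intensities of the probe sets, each array being multiplied to a common trimmed mean of 161. Differences are on the scale log2(signal + 15.2), which understates changes of dim genes. A probe set was tested if its signal exceeded 46.7 on at least 2 arrays, which all 10 did, so none was left out. The lineage markers Itga2b, which encodes CD41, and Pf4, a platelet chemokine, were present on all 9 arrays, at signals of 977 to 3678 for Itga2b and 4183 to 11328 for Pf4. Before scaling, the trimmed mean of MK6 replicates 1 and 3 was 103 and 102, against 123 to 221 on the other 7 arrays. The beta-actin control probe sets gave a 3′ over 5′ signal ratio, a measure of RNA and labelling quality, of 1.49, 1.33 and 3.21 on MK6 replicates 1, 2 and 3, against 0.957 to 1.09 on the arrays of the other stages. The same ratio of the Gapdh control probe sets was 0.996, 1.13 and 3.27 on MK6 replicates 1, 2 and 3, against 0.805 to 0.970 on the arrays of the other stages. By that ratio MK6 replicate 3 alone stood far from the other arrays. Fewer cells that express a gene and less of its RNA per cell cannot be told apart in such sorted bulk samples.

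Gfi1 (probe set 1417679_at, gene at chr5:107716655-107725805) was brightest at MKP and dimmest at MK6. Its scaled signals were 215 and 273 on the MKP arrays, 83.2 and 90.2 on the MK3 arrays, 113 and 139 on the MK4 arrays, and 2.52, 63.2 and 1.18 on the MK6 arrays. All MK6 signals lay below every array of the earlier stages, and MK6 replicate 2 was above the filter level of 46.7 while replicates 1 and 3 were below the pseudocount. The mean log2 signal was 4.82 ± 1.27 at MK6 (SD, n = 3) and 8.01 ± 0.23 at MKP (SD, n = 2). In limma the MK6 minus MKP difference was -3.19 ± 0.56 (SE, adjusted p = 0.0119), with a 95% interval from -4.42 to -1.95. Because 2 of the 3 MK6 values are near the floor of the array, the size of the fall rests on the pseudocount and is given as a log2 difference only. Without MK6 replicates 1 and 3 the difference was -1.72 (adjusted p = 0.0477), and the call ended without MKP replicate 1 (-3.35, adjusted p = 0.13) or MKP replicate 2 (-3.02, adjusted p = 0.13), and when that actin ratio was a covariate (-2.11, adjusted p = 0.36). The fit with that covariate called 0 of all probe sets tested. The smaller first step, -1.34 between MK3 and MKP, did not pass (adjusted p = 0.52), nor did -2.31 between MK6 and MK4 (adjusted p = 0.15).

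Gfi1b (1420399_at, chr2:28609450-28621982), the megakaryocytic and erythroid paralogue, had signals of 147 and 130 at MKP, 110 and 194 at MK3, 175 and 168 at MK4, and 64.9, 188 and 105 at MK6. The stages overlapped except that both MK4 values exceeded both MKP values, and all 9 arrays were above the filter level. Means were 6.97 ± 0.68 at MK6 (SD, n = 3) and 7.26 ± 0.11 at MKP (SD, n = 2), and the difference of -0.29 did not pass in limma (adjusted p = 0.65), with a 95% interval from -1.11 to 0.52. To ask whether the paralogues changed unequally, Gfi1 minus Gfi1b was taken within each array, which averaged -2.14 ± 0.75 at MK6 (SD, n = 3) and 0.75 ± 0.34 at MKP (SD, n = 2). The change of -2.89 log2 units gave an exact permutation p of 0.1 (two-sided, 3 against 2 arrays), the smallest p that the 10 arrangements allow. The Gfi1b difference was -0.93 (adjusted p = 0.0831) without MK6 replicates 2 and 3, 0.41 without MK6 replicates 1 and 3 and 0.031 without MK6 replicate 1, so neither its sign nor its size is settled.

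**Figure D1:**
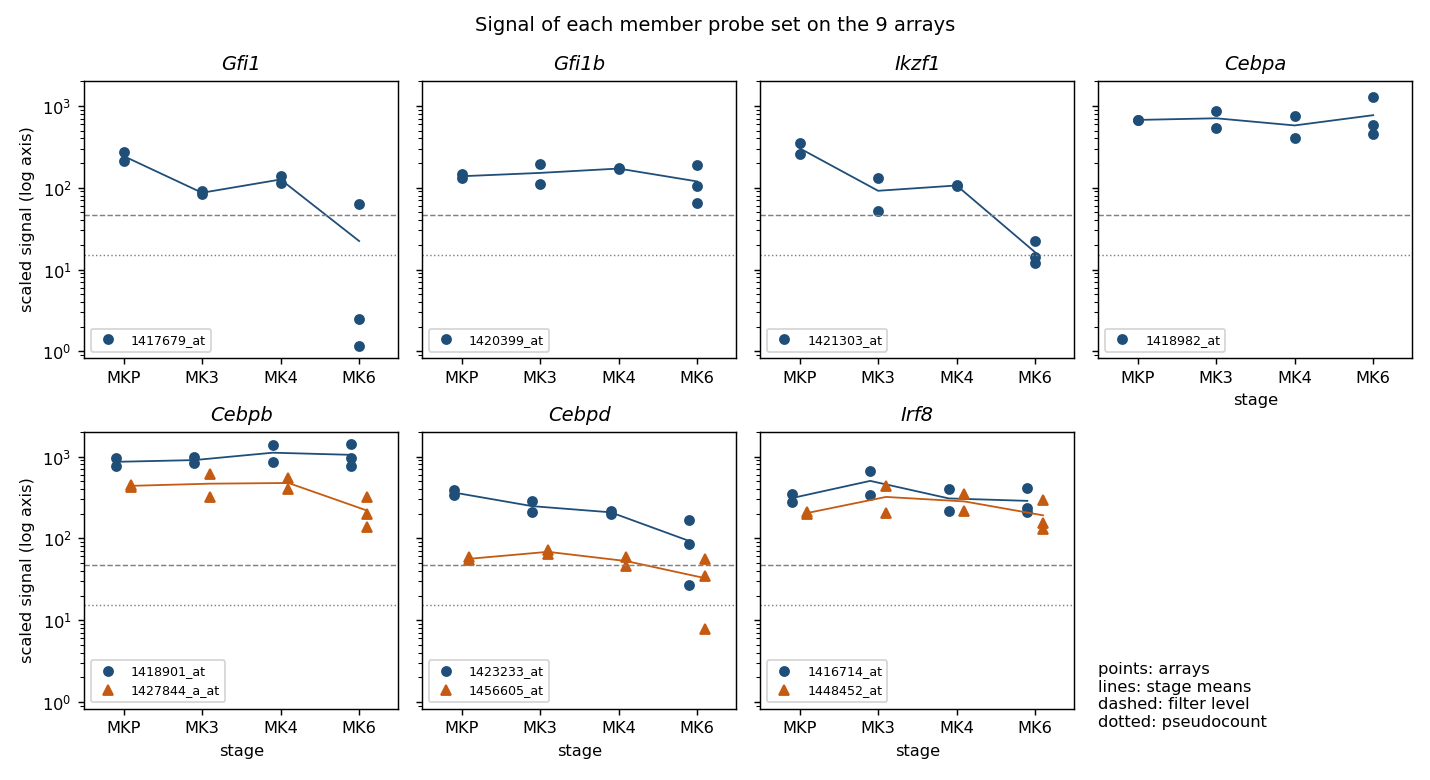
Scaled signal on a log axis against stage for the 10 probe sets, with 1 point per array, lines through the stage means, a dashed line at the filter level of 46.7 and a dotted line at the pseudocount of 15.2. All MK6 points of Ikzf1 and 2 of the 3 MK6 points of Gfi1 lie below the dashed line, while Cebpa, both Cebpb probe sets and both Irf8 probe sets stay above it on all 9 arrays.

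Ikzf1 (1421303_at, gene at chr11:11684962-11772930), the lymphoid regulator Ikaros, fell as well. Its signals were 350 and 257 at MKP, 132 and 51.6 at MK3, 107 and 106 at MK4, and 22.4, 12.1 and 14.2 at MK6. The 3 MK6 arrays lay below the filter level and below all 6 arrays of the other stages. The pseudocount compresses differences among signals this low, so the spread among these 3 arrays is not resolved. The MKP signals were 7.50 and 5.51 times that level. Means were 4.96 ± 0.24 at MK6 (SD, n = 3) and 8.30 ± 0.30 at MKP (SD, n = 2), a difference of -3.34 ± 0.35 in limma (SE, adjusted p = 0.00224). MK3 minus MKP (-1.67, adjusted p = 0.14) and MK6 minus MK4 (-1.97, adjusted p = 0.0957) did not pass, and MK4 minus MK3 was 0.30 (adjusted p = 0.999). The call ended without MKP replicate 1 (-3.13, adjusted p = 0.0683), but the value was -3.53 (adjusted p = 0.0433) without MK6 replicates 1 and 3, the arrays of low level. When the actin 3′ over 5′ ratio was a covariate, the value was -3.21 (adjusted p = 0.18), in a fit that called 0 of all probe sets tested.

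Among C/EBP genes, Cebpa (1418982_at, chr7:35119293-35121928), the early granulocyte factor, was bright at every stage. Its signals were 679 and 667 at MKP, 870 and 541 at MK3, 409 and 744 at MK4, and 1279, 583 and 447 at MK6. All stages overlapped, with both MKP arrays inside the ranges of MK3, MK4 and MK6. The MK6 minus MKP difference was 0.045 (adjusted p = 0.96 in limma), with a 95% interval from -0.88 to 0.97. It was 0.91 without MK6 replicates 2 and 3, 0.68 when the actin ratio was a covariate, and -0.39 without MK6 replicate 1, so neither its sign nor its size is settled. The mean signal of this probe set ranked at the 94.2 percentile of all probe sets with 1 gene, and that of 1418901_at of Cebpb at the 96.7 percentile.

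Cebpb (chr2:167688915-167690432), the cytokine-responsive family member, has a pair of probe sets that differed. On 1418901_at the signals were 767 and 955 at MKP, 980 and 828 at MK3, 855 and 1372 at MK4, and 1412, 763 and 970 at MK6, with overlap between all stages. On 1427844_a_at they were 446 and 430 at MKP, 611 and 320 at MK3, 398 and 551 at MK4, and 319, 198 and 139 at MK6, so that the MK6 arrays lay below all earlier ones, by a narrow margin for MK6 replicate 1. The MK6 minus MKP differences were 0.24 (adjusted p = 0.64) and -1.03 (adjusted p = 0.11) in limma, with 95% intervals from -0.43 to 0.92 and from -1.81 to -0.24. The second passed without MK6 replicate 1 (-1.32, adjusted p = 0.0344) and with array weights (-1.32, adjusted p = 0.00681). Whether the difference between the probe sets follows transcript forms was not tested.

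Cebpd (chr16:15887286-15889545), which is induced in acute responses, fell on its brighter probe set. On 1423233_at the signals were 340 and 386 at MKP, 285 and 210 at MK3, 198 and 218 at MK4, and 84.5, 167 and 26.5 at MK6. MKP was highest and MK6 lowest, with no overlap between those stages or between MK6 and MK4. The means were 6.51 ± 1.07 at MK6 (SD, n = 3) and 8.56 ± 0.13 at MKP (SD, n = 2), a difference of -2.05 ± 0.48 (SE, adjusted p = 0.0305) in limma. The dimmer 1456605_at had 58.5 and 54.0 at MKP, 72.4 and 64.5 at MK3, 45.8 and 59.6 at MK4, and 55.8, 34.2 and 7.85 at MK6, and its difference of -0.72 did not pass (adjusted p = 0.32), although it did with array weights (-1.19, adjusted p = 0.0287). On both probe sets MK6 replicate 3, with the beta-actin ratio of 3.21, was the lowest of the 9 arrays. The call of 1423233_at ended without that array (-1.49, adjusted p = 0.0503), without MK6 replicates 1 and 3 (-1.05, adjusted p = 0.13), without MKP replicate 1 (-2.14, adjusted p = 0.20) or 2 (-1.96, adjusted p = 0.21), and when the actin ratio was a covariate (-0.66, adjusted p = 0.56). The fit with that covariate called 0 of all probe sets tested. The call also ended with the mean of both probe sets (-1.39, adjusted p = 0.0746) and with the arrays of MK6 and MKP alone (-2.05, adjusted p = 0.0581). It held without MK6 replicate 1 (-2.11, adjusted p = 0.0372) or replicate 2 (-2.55, adjusted p = 0.00584). Without MK6 replicates 2 and 3 the difference was -1.92.

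Irf8 (chr8:120736358-120756694), the monocyte and dendritic cell factor, was measured by a pair of probe sets that ran alike except at MK4. MK4 minus MK3 was -0.67 on 1416714_at and -0.12 on 1448452_at, and neither was called. On 1416714_at the signals were 346 and 274 at MKP, 669 and 339 at MK3, 214 and 401 at MK4, and 416, 236 and 210 at MK6. On 1448452_at they were 201 and 207 at MKP, 435 and 207 at MK3, 219 and 346 at MK4, and 290, 130 and 153 at MK6. MK3 replicate 1 was the highest array on both probe sets, and the stages otherwise overlapped except that both MK4 values of 1448452_at exceeded both MKP values. The MK6 minus MKP differences were -0.16 (adjusted p = 0.82) and -0.17 (adjusted p = 0.81) in limma, with 95% intervals from -0.997 to 0.68 and from -1.01 to 0.67. Both values were above 0 without MK6 replicates 2 and 3, at 0.42 and 0.48, and below 0 without MK6 replicates 1 and 3, at -0.37 and -0.60.

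**Figure D2:**
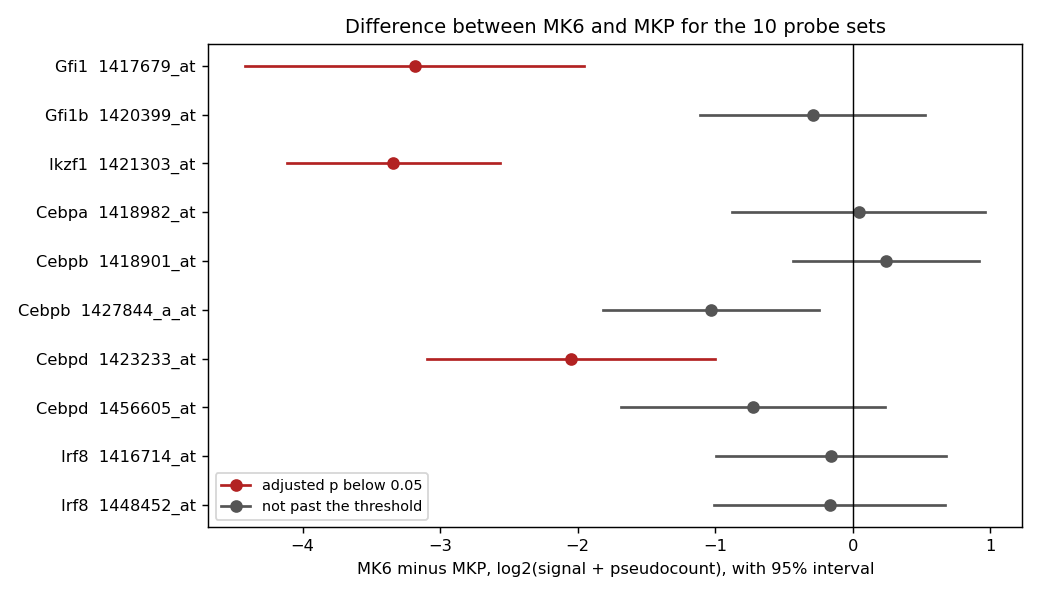
MK6 minus MKP difference on the log2(signal + pseudocount) scale for each of the 10 probe sets (points), with its 95% interval (lines), red where the adjusted p is below 0.05. The red values are those of Ikzf1 (-3.34), Gfi1 (-3.19) and 1423233_at of Cebpd (-2.05), and the intervals of Gfi1b, Cebpa and both Irf8 probe sets span 0.

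Counted together, 3 of the 10 probe sets were lower in MK6 than in MKP and 0 were higher by limma, against 4.27% of all 14516 tested probe sets that were lower and 2.64% that were higher. At an unadjusted p below 0.05 the counts were 4 lower and 0 higher, where 25% of all probe sets passed in either direction. The median difference over the 10 was -0.51, and that over all tested probe sets was 0.082. Groups of arrays did not overlap, with MK6 below MKP, for 4 of the 10, against 21.1% of all. In the successive steps none of the 10 was called by limma. At an unadjusted p below 0.05 there was 1 for MK3 minus MKP, 0 for MK4 minus MK3 and 4, all lower, for MK6 minus MK4, where 9.65%, 3.46% and 11.6% of all probe sets passed. Of all tested probe sets 0.0758%, 0.0138% and 0.0276% were called in these steps after adjustment, so calls were rare across the whole array. In a moderated F test for any difference between the stages, Ikzf1 (adjusted p = 0.00876) and Gfi1 (adjusted p = 0.0419) passed, against 2.59% of all probe sets. These comparisons share arrays and are not independent.

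**Figure D3:**
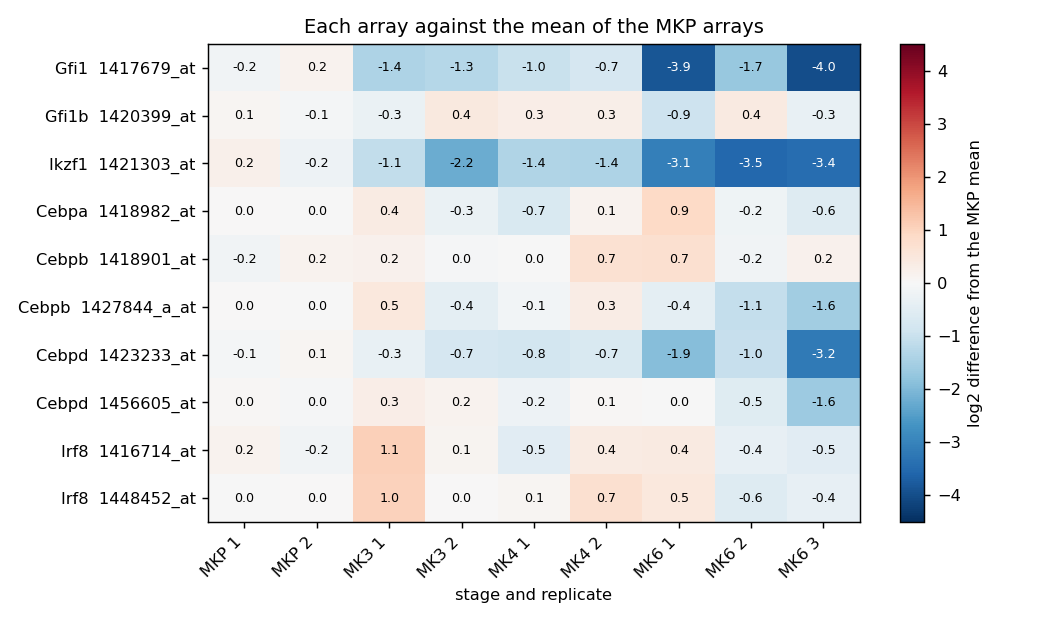
Log2 signal of each probe set (rows) on each array (columns) minus its mean over the MKP arrays, with blue for lower and red for higher. Ikzf1 and Gfi1 are blue on all 3 MK6 arrays, and Gfi1 and 1423233_at of Cebpd are lower on MK6 replicates 1 and 3 than on MK6 replicate 2.

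Patterns over the 9 arrays were compared by Pearson's r on the brightest probe set of each tested gene, as a description of arrays that share their stages. For Gfi1 the genes most alike were Sgo1, the centromere protector shugoshin (r = 0.991), the non-coding RNA Xist (0.987) and the spindle motor Kif11 (0.986). For Cebpd they were Tmem176a (0.985), the acute-phase protein haptoglobin, Hp (0.981), and the oxygen sensor Egln1 (0.978). For Ikzf1 they were Dr1 (0.966), Mcmbp (0.960) and Letmd1 (0.954), and for Gfi1b the granule proteoglycan Srgn (0.958), the hexokinase Hk1 (0.939) and Rab28 (0.933). Irf8 was most like Ubl3 (0.988), the myeloid signalling adaptor Tyrobp (0.981) and Gnpda1 (0.956). Cebpa was most like Zbtb3 (0.946), Stambpl1 (0.942) and Tmco5 (0.931), and Cebpb most like Tk2 (0.952), Cflar (0.915) and Sowahc (0.911).

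Markers of other blood cells were tested by the brightest probe set of each gene. Over all 9397 genes tested so, 2.81% were higher and 3.03% lower in MK6 than in MKP, and 23.9% had an unadjusted p below 0.05 in either direction. Of 19 neutrophil and granulocyte markers 16 were tested, and 9 were lower in MK6 than in MKP and 0 higher by limma (13 lower and 0 higher at an unadjusted p below 0.05). Their median difference was -2.35, with 0.13 over all genes. Their summed signal was 15625, 30798 and 7423 on MK6 replicates 1, 2 and 3 and 42532 to 51942 on the MKP arrays, and all 16 exceeded the filter level on at least 1 array of each stage. Elane, neutrophil elastase, had 31.8, 620 and 36.6 on the MK6 arrays, against 3666 and 3315 on the MKP arrays, so that MK6 replicate 2 was the highest of its stage for Elane as it was for Gfi1 and for 1423233_at of Cebpd. Hdc, the histamine-forming enzyme of mast cells and basophils, was also highest there at MK6 (9.21, 37.0 and 6.63, against 307 and 204 at MKP). The summed signal of the 12 mast cell and basophil markers with a probe set went the other way. It was 1308, 1112 and 1378 on MK6 replicates 1, 2 and 3, lowest on replicate 2. Hdc was the 1 called gene among 10 tested markers of those cells (difference -3.14, adjusted p = 0.00627 in limma). Of these 10, 1 was higher and 4 lower at an unadjusted p below 0.05, with a median of -0.033. Another of them, Fcer1a, lay on the other side at 1.34 (adjusted p = 0.0873). The part of these neutrophil, mast cell and basophil markers in the falls of Gfi1 and Cebpd was not tested.

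Lymphocyte markers were mostly dim. Of 18 with a probe set, 6 (Cd3e, Cd3g, Cd2, Cd4, Rag1 and Rag2) were above the filter level on no array, 11 on 1 to 7 arrays and Nkg7 on all 9. Nkg7, a granule protein of natural killer cells, fell to 79.3, 182 and 167 at MK6, against 544 and 632 at MKP (adjusted p = 0.0106 in limma). It was the 1 lower gene among 10 tested, with 0 higher (1 higher and 2 lower at an unadjusted p below 0.05) and a median difference of 0.21. The B cell genes did not pass and lay on opposite sides. Ms4a1, which encodes CD20, had 166, 62.9 and 118 at MK6, against 29.5 and 38.7 at MKP (difference 1.33, adjusted p = 0.0635 in limma), and the B cell receptor chain Cd79b had a difference of -1.21 (adjusted p = 0.0561). The summed signal of all 18 was 555 to 1078 at MK6 and 1058 to 1154 at MKP, and without Nkg7 it was 999, 374 and 635 on the MK6 arrays and 514 and 522 on the MKP arrays. Monocyte, macrophage and dendritic markers had a summed signal of 15557 to 34934 at MK6 and 14091 to 16885 at MKP, and of 19 tested 2 were higher and 4 lower in MK6 (4 and 7 at an unadjusted p below 0.05, median 0.041), with the chemokine receptor Ccr2 at -3.67 (adjusted p = 0.00461). Their highest sum, 39546, was on MK3 replicate 1, which was also the highest array for both Irf8 probe sets, and their part in the level of Irf8 was not tested. Of 3 tested eosinophil markers 1 was lower, the granule protein gene Prg2 (-1.36, adjusted p = 0.0409), and 0 higher. Of 6 tested erythroid markers 0 were called by limma (2 higher and 0 lower at an unadjusted p below 0.05), with a median of -0.21. Of 13 tested megakaryocyte markers 3 were higher and 0 lower, Itga2b by 1.53 (adjusted p = 0.0431), with a median of 0.66.

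The partners and relatives of these factors are given by list, each gene by its brightest probe set in limma. Of 10 tested corepressor partners of Gfi proteins, among them Kdm1a (Lsd1) and Rcor1 (CoRest), 0 were higher and 0 lower in MK6 than in MKP (0 and 2 at an unadjusted p below 0.05, a share no higher than the 23.9% over all genes), with a median of -0.081. Ehmt2, a histone methyltransferase, lay at -0.92 (adjusted p = 0.0940). Of 12 tested Ikaros relatives and partners in remodelling complexes, 1 was higher, the NuRD subunit Gatad2b (1.40, adjusted p = 0.00797), and 1 lower, the NuRD helicase Chd4 (-1.20, adjusted p = 0.0364), with a median of -0.46. At an unadjusted p below 0.05, 1 of these 12 was higher and 4 were lower, against 23.9% of all genes in either direction. Of 9 tested C/EBP relatives, dimer partners and Tribbles genes, 2 were higher and 0 lower (3 and 2 at an unadjusted p below 0.05): the stress-induced C/EBP relative Ddit3 (1.47, adjusted p = 0.0113) and the pseudokinase Trib3 (0.92, adjusted p = 0.0493). In the same list Trib1 lay at -1.74 (adjusted p = 0.21) and Nfil3 at -1.07 (adjusted p = 0.0609), and the median was 0.22. Of 7 other Irf genes 0 were higher and 0 lower (0 and 1 at an unadjusted p below 0.05), with a median of -0.25 and Irf1 at -0.73 (adjusted p = 0.0923). Of 19 tested other fate factors, 1 was higher, Id2, an inhibitor of basic helix-loop-helix factors (2.31, adjusted p = 0.0207), and 1 lower, Spi1, the myeloid and B cell factor PU.1 (-1.31, adjusted p = 0.0330), with a median of 0.084. At an unadjusted p below 0.05, 3 of these 19 were higher and 5 lower. For comparison, 2.81% of all tested genes were higher and 3.03% lower, with a median of 0.13.

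**Figure D4:**
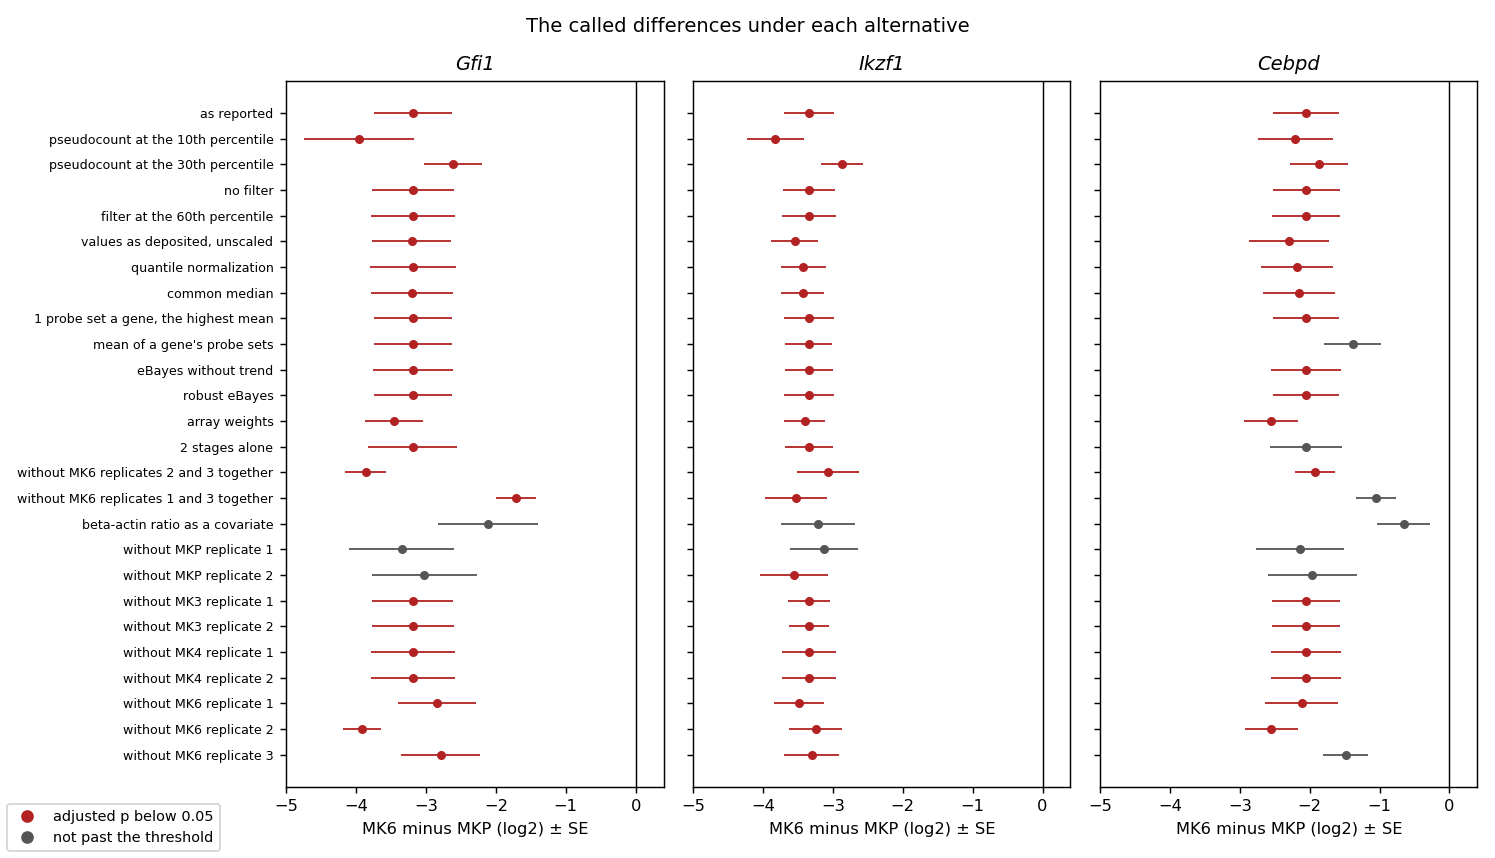
MK6 minus MKP difference with its SE for Gfi1, Ikzf1 and 1423233_at of Cebpd under each way of processing, the reported one at the top, red where the adjusted p is below 0.05. All values are below 0; those of Ikzf1 run from -3.82 to -2.87, those of Gfi1 from -3.96 to -1.72 and those of Cebpd from -2.55 to -0.66.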

How the data were processed

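RNA from 9 samples was hybridised to single-colour Affymetrix MOE430A arrays after oligo-dT-primed labelling. The deposited values are linear intensities per probe set, and the submitters' processing notes name MAS5 (version and settings not stated there). Of 22690 probe sets, 20380 were paired with 1 gene, 691 with several and 1555 with none, and 64 were controls. Symbols were updated through gene identifiers, 20351 of which were in the reference table. Because the trimmed means (2% off each end) differed by over 10%, arrays were multiplied to their common mean of 161. The pseudocount of 15.2 was the 20th percentile and the filter level of 46.7 the 40th, required on at least 2 arrays, which left 14516 probe sets and 9397 genes. Scaling leaves out changes in total RNA per cell. The number of arrays limits the precision.

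All arrays entered 1 limma 3.58.1 fit in R 4.3.3 with a mean per stage and an intensity trend (5 residual degrees of freedom), tested on simulated data first. Each probe set was tested by itself, and p was adjusted (Benjamini-Hochberg) over all of them within a comparison, with a threshold of 0.05. Named were the member probe sets, for each member the 3 genes with the highest r, and from the 12 lists (5 of context genes, 7 of cell type markers) members among the 3 with the largest MK6 minus MKP difference, plus Itga2b and Elane. Pf4, Rcor1, Kdm1a, Trib3 and the T cell and recombination genes were named after their values were seen. Members and lists were chosen with earlier results of these data known. Alternatives were 2 pseudocounts, 2 filters, 3 scalings, 2 ways of joining probe sets, 3 variance models, arrays of both stages alone, the beta-actin ratio as a covariate, and arrays left out.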

Additional observations from a re-analysis of the deposited data

How the results depend on the processing

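The number of genes called among the 7 measured, in limma, was 3 for MK6 minus MKP. It was 2 to 4 in the other settings, except 0 when the actin 3′ over 5′ ratio was a covariate, and 0 to 4 with each array left out (0 without MKP replicate 1 and 1, Ikzf1, without MKP replicate 2). A stage left with 1 array is assumed to vary like the others. The planned omission of MK6 replicates 2 and 3 had meant the arrays of low level, which are replicates 1 and 3, so that pair was added after seeing the data. For MK6 minus MK4 the count was 0, with 2 on values as deposited, 4 with array weights, 1 without MK6 replicates 2 and 3, and 0 to 2 over single omissions. For MK3 minus MKP it was 0, with 1 under array weights. For any stage it was 2, with 1 under the lower pseudocount, no filter, the stricter filter, quantile normalization, a common median and no trend, 4 with array weights, 0 with the covariate, 0 without MK6 replicates 1 and 3, and 0 to 3 over single omissions. Over all probe sets 1003 were called for MK6 minus MKP, from 0 with the covariate to 3110 with array weights, with 552 as deposited, 549 and 596 with 1 value a gene, 630 on both stages alone, 88 without MK6 replicates 1 and 3, 2612 without 2 and 3, and 5 to 1753 over single omissions (5 and 18 without MKP replicates 1 and 2, 307 without MK6 replicate 3). Called differences did not change sign. With array weights 1427844_a_at of Cebpb and 1456605_at of Cebpd were called too (-1.32 and -1.19). Among those not called, Cebpa was 0.91 without MK6 replicates 2 and 3, 0.68 with the covariate, -0.31 on values as deposited, -0.083 with a common median, -0.31 with array weights, -0.20 without MK6 replicates 1 and 3, and -0.39 to 0.35 over single omissions. Cebpb on 1418901_at was -0.12 as deposited, -0.39 as the mean of its probe sets and -0.16 without MK6 replicates 1 and 3. Gfi1b was -0.93 without MK6 replicates 2 and 3, 0.41 without MK6 replicates 1 and 3 and -0.64 to 0.031 over single omissions. Cebpd on 1456605_at was 0.28 with the covariate, and Irf8 0.23 and 0.028 with it and 0.42 and 0.48 without MK6 replicates 2 and 3, with -0.44 to 0.024 and -0.49 to 0.047 over single omissions. The cause was not tested. Gfi1 minus Gfi1b ran from -3.64 to -2.13. Signals under the filter level set a limit on the falls of Gfi1 and Ikzf1, whose size below it is not resolved. No paired analysis was possible because the titles give no replicate numbers shared between stages.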
